A study of Sus scrofa domesticus with 16 samples.

Results

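The proteasome genes of the porcine adrenal gland were taken from the array annotation by symbol: every gene named PSMA, PSMB, PSMC, PSMD, PSME, PSMF or PSMG with a number, without the interferon-inducible subunits PSMB8, PSMB9 and PSMB10. This gave 38 genes of 6765 with a symbol of their own on the array. They comprised 7 of the alpha and 7 of the beta rings of the core, 5 ATPases, 3 other subunits of the base, 7 of the lid, 4 activators, 1 inhibitor and 4 assembly chaperones. Adrenal RNA of 16 domestic pigs (Sus scrofa domesticus) had been hybridised to the Affymetrix porcine genome array, with 1 array per animal. All animals had been mixed with unfamiliar pigs. The 8 labelled high stress came from the high aggressiveness mixing treatment and the 8 labelled low stress from the low aggressiveness one. The submitters chose the groups for a difference in aggressive behaviour and in plasma cortisol, and the samples include no unmixed group. The labels give no breed, sex or age.

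The proteasome is the large protease that degrades proteins tagged with ubiquitin. Its core is a barrel of stacked rings: the alpha rings form the gate, and the beta rings hold the cutting sites inside. A cap on the end of the barrel consists of a base, whose ring of ATPases unfolds substrates and pushes them in, and a lid, which removes the ubiquitin chain. Activators such as the PSME1 and PSME2 complex can bind the core in place of the cap, and dedicated chaperones assemble the parts. In the adrenal cortex, as in other endocrine cells, the system turns over enzymes and regulatory proteins.

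Markers of the labelled tissue were bright. On the log2 scale, STAR of the steroid-making cortex averaged 14.85 over all animals and PNMT of the adrenaline-making medulla 13.60. The mean log2 level over 9 steroid cortex markers lay at 12.83 to 13.12 in high stress and at 12.59 to 13.16 in low stress, and that of 6 chromaffin markers at 10.95 to 11.59 and 10.80 to 11.35 (1 mean for each animal). For 7 T and B cell markers, of which 2 were bright enough to be tested, it was 4.51 to 5.84 in high stress and 4.56 to 5.79 in low stress. For 4 myeloid markers it was 6.94 to 7.79 and 7.09 to 7.74. The list of 4 smooth muscle markers lay at 9.23 to 10.12 in high stress and 8.59 to 10.10 in low stress. All 4 had higher means in high stress, with a median log2 fold change of 0.20, against 50.2% of genes tested with a higher mean, and 1 of them, TAGLN, had an unadjusted p under 0.05, against 3.19% of probe sets. The 4 adipocyte markers lay at 5.67 to 7.11 in high stress and 6.22 to 7.67 in low stress, with group means of 6.48 and 7.04. ADIPOQ, too dim to be tested, averaged 3.25 in high and 5.20 in low stress. Of the 3 tested, 1 was higher and 2 were lower in high stress. All these ranges overlapped, and the part of other cell types in the stress differences was not tested. The arrays also formed 2 sets that the labels do not name, seen in the bacterial dap transcript that is added as a labelling control. Its signal averaged 605 in 8 arrays, called the low-spike set here, and 3588 in the other 8, the high-spike set, and each set held 4 animals of each stress group. Because the sets were balanced over stress, a model with the set as a block gave each gene the same difference and a different error. In whole-tissue RNA, fewer cells of a type and less RNA per cell cannot be told apart.

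In the comparison of high with low stress, the 14 core genes all had the same sign. They were read from the same 16 animals. In each animal except high stress replicates 2 and 7, the alpha and beta rings deviated from their means in the same direction. The 14 signs are therefore not 14 separate observations. All 7 alpha and all 7 beta genes had higher means in high stress glands, with a median log2 fold change of 0.12 for the alpha ring and 0.17 for the beta ring. The ATPase ring was mixed, with 3 of 5 higher and a median of 0.037, which was 0.012 with quantile normalization, 0.11 with median centring and 0.012 without high stress replicate 2. The lid had 5 of 7 higher and a median of 0.059, which was 0.0090 when the probe sets of each gene were averaged and 0.13 with median centring. Over all 38 genes 30 had a higher mean, against 50.2% of the 5455 genes tested, and the median was 0.082 against 0.00062. The count was 28 with quantile normalization and 35 with each array centred on its median. Centring moved the whole array: 60.8% of probe sets then had a higher mean in high stress, against 41.6% as deposited. Bright genes in general leaned the same way. Of 683 genes with a mean log2 signal of 11.25 to 12.75, the span of the central part of the proteasome genes, 65.3% had higher means in high stress, with a median of 0.040. The median signal of the 14 core genes was 12.80, above this span, so the 683 genes do not match the core in signal.

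No proteasome gene passed limma at an adjusted p under 0.05, and neither did any probe set on the array (0% of 14399). At an unadjusted p under 0.05 there was 1 of 38, PSME2, against 3.19% of all probe sets. With the array set as a block there were 6 of 38 at an unadjusted p under 0.05 (PSMB2, PSMB3, PSMB6, PSMD4, PSMD8 and PSME2), against 6.38%, and again none passed the adjusted threshold, against 0.00694%. The smallest adjusted p among the 38 was 0.999 without the block and 0.682 with it. No member separated the stress groups over all animals, against 0.0367% of genes tested. The differences were small: PSMB6 was the only member past 0.25 on the log2 scale.

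**Figure D1:**
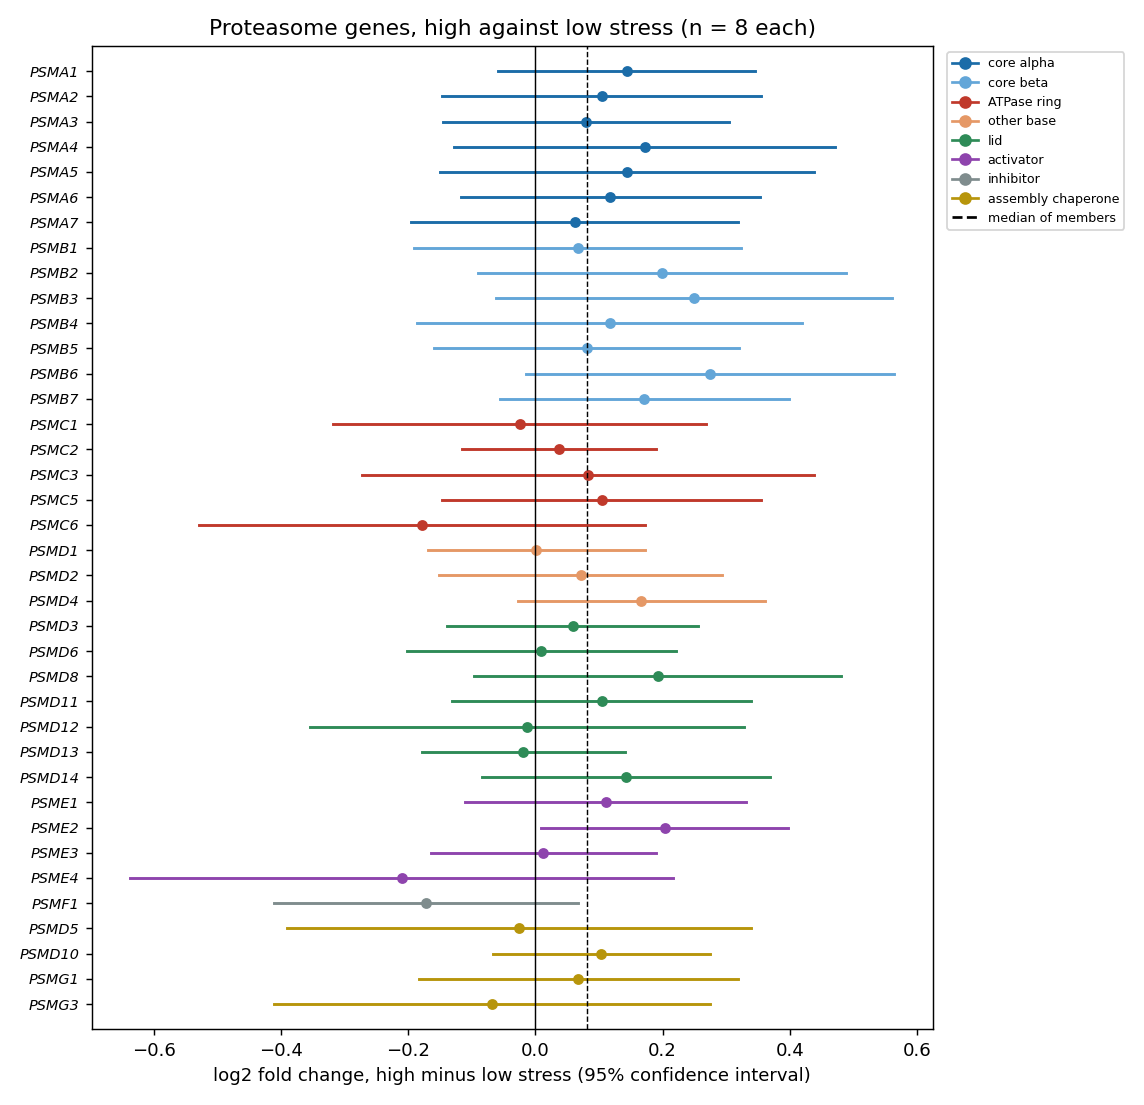
Log2 fold change of each of the 38 proteasome genes (horizontal axis, high minus low stress, n = 8 each), with its 95% confidence interval as a line and the class of subunit as the colour; the dashed line is the median of the members at 0.082. All 14 core genes lie to the right of 0, and the interval of each member except PSME2 includes 0.

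The beta ring carries the cutting sites, and PSMB6 is the subunit with the caspase-like one. Its probe set had a log2 signal of 12.34 at the lowest, 13.05 at the median and 13.15 at the highest in high stress, and of 12.21, 12.65 and 12.87 in low stress. While 5 high stress animals lay above every low stress animal, the other 3 lay within the range of low stress. The mean was 12.90 ± 0.30 against 12.63 ± 0.24 (SD, n = 8 each), which is 1.21-fold (log2 0.28, 95% interval -0.014 to 0.56, limma adjusted p = 0.999, or 0.733 with the block).

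PSMB3, a structural beta subunit, lay at 11.05, 11.61 and 11.77 in high stress and at 10.86, 11.28 and 11.57 in low stress (lowest, median and highest log2 signal). The mean was 11.48 ± 0.30 against 11.23 ± 0.29 (SD, n = 8 each), with a log2 fold change of 0.25 (SE 0.15 without and 0.080 with the block). The groups overlapped, with 4 high stress animals above all of low stress. The other cutting subunits had smaller values: the trypsin-like PSMB7 had a log2 fold change of 0.17 and the chymotrypsin-like PSMB5 0.080. Among the structural ones PSMB2 had 0.20, PSMB4 0.12 and PSMB1 0.067.

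The alpha ring differed less than the beta ring in its largest values. PSMA4 lay at 12.35, 12.81 and 13.23 in high stress and at 12.09, 12.61 and 12.94 in low stress, a log2 fold change of 0.17 (SE 0.14), or 0.10 without low stress replicate 6. PSMA1 lay at 11.72, 12.01 and 12.35 in high stress and at 11.75, 11.93 and 12.01 in low stress. Its log2 fold change was 0.14 (SE 0.096), and the high stress animals were more spread (SD 0.20 against 0.10), since they included both the lowest and the highest value. PSMA5 had a log2 fold change of 0.14, PSMA6 0.12, PSMA2 0.10, PSMA3 0.080 and PSMA7 0.062. Each of the 14 core genes kept a positive sign in all 16 alternative analyses, both other scalings of the arrays included, and with each of the 16 animals left out in turn. The filters, the trended robust prior and the balanced blocks alone leave a fold change unchanged by design. So does averaging of probe sets, since each core gene had 1. Those analyses could not change a sign.

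By the sign of the difference, the base and the lid of the cap did not share one direction. The negative values of PSMC1 (-0.024, SE 0.14), PSMD12 (-0.013, SE 0.16) and PSMD13 (-0.019, SE 0.076) were near 0. The confidence interval of each base and lid gene included 0.13, the core median. The classes also differed in median log2 signal: 12.80 for the core, 11.52 for the ATPase ring, 11.47 for the other base and 11.50 for the lid. Whether the classes differed in response to stress apart from signal was not tested. Among the ATPases, PSMC6 was the gene with the most negative value. It lay at 10.67, 10.98 and 11.75 in high stress and at 11.06, 11.32 and 11.83 in low stress. The log2 fold change was -0.18 (SE 0.17), or -0.11 without high stress replicate 6, and 5 high stress animals lay below all of low stress. PSMC5 pointed the other way, at 11.47, 11.83 and 12.07 in high stress against 11.41, 11.68 and 12.01 in low stress, a log2 fold change of 0.10 (SE 0.12). PSMC3 had 0.083, PSMC2 0.037 and PSMC1 -0.024, and PSMC1 changed sign when the arrays were centred on their medians.

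Of the other base subunits, PSMD4, a receptor that binds ubiquitin chains, had the largest difference. It lay at 11.35, 11.65 and 11.85 in high stress and at 11.32, 11.47 and 11.60 in low stress, a log2 fold change of 0.17 (SE 0.092, and 0.070 with the block). PSMD2, a scaffold that docks ubiquitin carriers, lay at 11.21, 11.57 and 11.71 against 11.15, 11.47 and 11.69, a log2 fold change of 0.071 (SE 0.11). PSMD1, the other scaffold of the base, had 0.0011, and changed sign after quantile normalization.

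In the lid, PSMD8 lay at 12.19, 12.84 and 12.94 in high stress and at 12.13, 12.51 and 12.76 in low stress. The log2 fold change was 0.19 (SE 0.14, and 0.089 with the block). PSMD14, the enzyme that cuts ubiquitin off the substrate, lay at 11.25, 11.38 and 11.78 in high stress and at 10.92, 11.27 and 11.60 in low stress, a log2 fold change of 0.14 (SE 0.11). The stress groups overlapped in both genes. PSMD11 had 0.10, PSMD3 0.059 and PSMD6 0.0090, while PSMD12 had -0.013 and PSMD13 -0.019. The last 2 turned positive with median centring, and PSMD6 turned negative with quantile normalization.

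**Figure D2:**
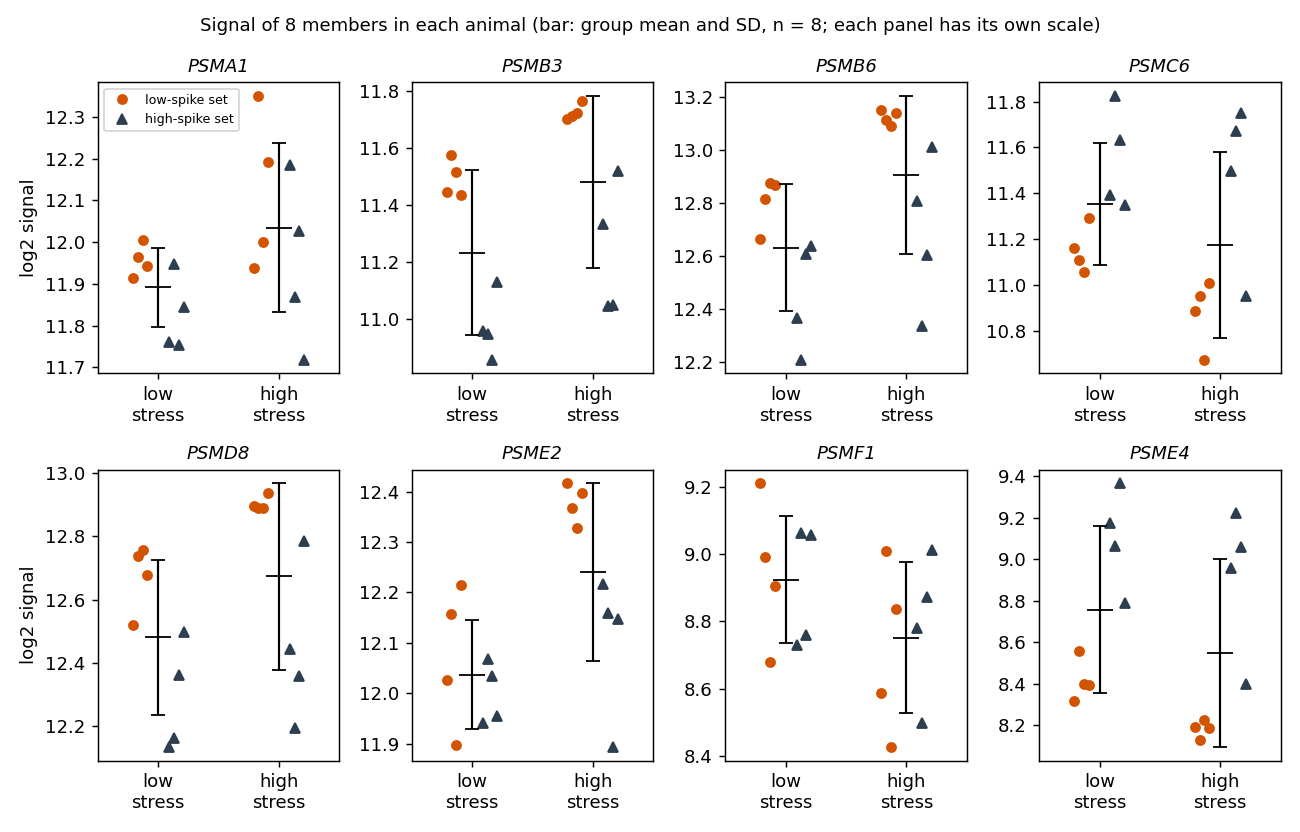
Log2 signal of 8 members in each animal (vertical axis, own scale in each panel) by stress group, with circles for the low-spike and triangles for the high-spike set, and bars for the group mean and SD (n = 8). Within the low-spike set the 4 high stress animals lie apart from the 4 low stress animals in PSMB3, PSMB6, PSMC6, PSMD8, PSME2 and PSME4.

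By sign, the regulators of the core did not move together either. They were dimmer than the core (12.80), with a median log2 signal of 10.48 for the activators and 8.84 for the inhibitor. PSME2, which with PSME1 forms an activator known from antigen processing, lay at 11.89, 12.27 and 12.42 in high stress and at 11.90, 12.03 and 12.22 in low stress. The log2 fold change was 0.20 (95% interval 0.0094 to 0.40, limma adjusted p = 0.999), and 7 of 8 high stress animals were above the low stress mean. PSME1 lay at 11.98, 12.18 and 12.42 in high stress and at 11.81, 12.01 and 12.37 in low stress, for a log2 fold change of 0.11 (SE 0.10). PSME3, the nuclear activator, had 0.012.

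The activator PSME4 had the most negative value of all members. It lay at 8.13, 8.31 and 9.22 in high stress and at 8.32, 8.67 and 9.37 in low stress, a log2 fold change of -0.21 (SE 0.20, and 0.11 with the block), or -0.12 without low stress replicate 6. The inhibitor PSMF1 lay at 8.42, 8.81 and 9.01 against 8.68, 8.95 and 9.21, with a log2 fold change of -0.17 (SE 0.11). A dimmer probe set of PSMF1 had 0.090, so the probe sets of this gene disagreed in sign. PSMD1 was the other gene whose probe sets differed in sign among those tested (0.0011 and -0.036), and the tested probe sets of PSMC2 and PSMD11 pointed the same way.

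Assembly chaperones, with a median log2 signal of 10.39, were split 2 to 2. PSMD10, which holds an ATPase during assembly of the base, lay at 11.18, 11.26 and 11.42 in high stress and at 11.02, 11.19 and 11.37 in low stress, a log2 fold change of 0.10 (SE 0.081). PSMG1, which helps the alpha ring to form, lay at 10.57, 10.79 and 11.18 against 10.46, 10.67 and 11.24, a log2 fold change of 0.068 (SE 0.12). PSMD5, another base chaperone, had -0.026 and PSMG3, a core chaperone, -0.068. Both turned positive with median centring.

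The array set was the larger source of difference among these genes. Between the sets, with stress in the model, 25 of 38 members passed limma at an adjusted p under 0.05, against 40.1% of all probe sets. Of these 21 were lower in the high-spike set, where 24.2% of genes tested were called lower, and 4 were higher, where 16.4% were called higher. Of the 683 genes with a mean log2 signal of 11.25 to 12.75, 39.2% were called lower and 10.1% higher. These genes do not match the core in signal. All 7 beta genes and 5 of 7 alpha genes were called lower, with medians of -0.39 and -0.30 on the log2 scale. The lid had 2 of 7 called lower and 1 called higher, with a median of -0.041.

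PSMC3, an ATPase, had the largest fall among the members. It averaged 12.07 in the low-spike set (11.91 to 12.24) and 11.46 in the high-spike set (11.27 to 11.59), a log2 difference of -0.62 (SE 0.077, limma adjusted p = 3.60e-05), and the sets did not overlap. PSMB3 averaged 11.61 and 11.11, a difference of -0.50 (SE 0.080, limma adjusted p = 0.000198). In all, 5 members had sets that did not overlap (PSMB5, PSMC1, PSMC3, PSMD5 and PSMD12), against 6.21% of genes tested.

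The 4 called higher in the high-spike set were PSME4, PSMD5, PSMD12 and PSMC6. PSME4 averaged 8.30 in the low-spike and 9.00 in the high-spike set, a difference of 0.70 (SE 0.11, limma adjusted p = 0.000181). The difference was 0.63 for PSMD5, 0.50 for PSMD12 and 0.49 for PSMC6. For high against low stress the same 4 had log2 fold changes of -0.21, -0.026, -0.013 and -0.18. The comparisons use the same 16 arrays. An index of RNA shortening, the 3' over the 5' signal of the actin control, averaged 14 ± 3.7 in the low-spike and 6.87 ± 1.2 in the high-spike set (SD, n = 8 each). By stress group it was 9.62 ± 3.94 for high and 11.2 ± 5.2 for low, with medians of 9.37 and 9.39. The highest value was 21.9, in low stress replicate 4. For GAPDH the sets had the opposite order, with a ratio of 1.39 in the low-spike and 1.52 in the high-spike set. It was 1.43 in high and 1.47 in low stress. With the actin ratio as a covariate, 10 of 38 members had an unadjusted p under 0.05 for stress, against 12.9% of probe sets, and none passed the adjusted threshold, against 0.00694%. The part of RNA length in these differences was not tested.

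**Figure D3:**
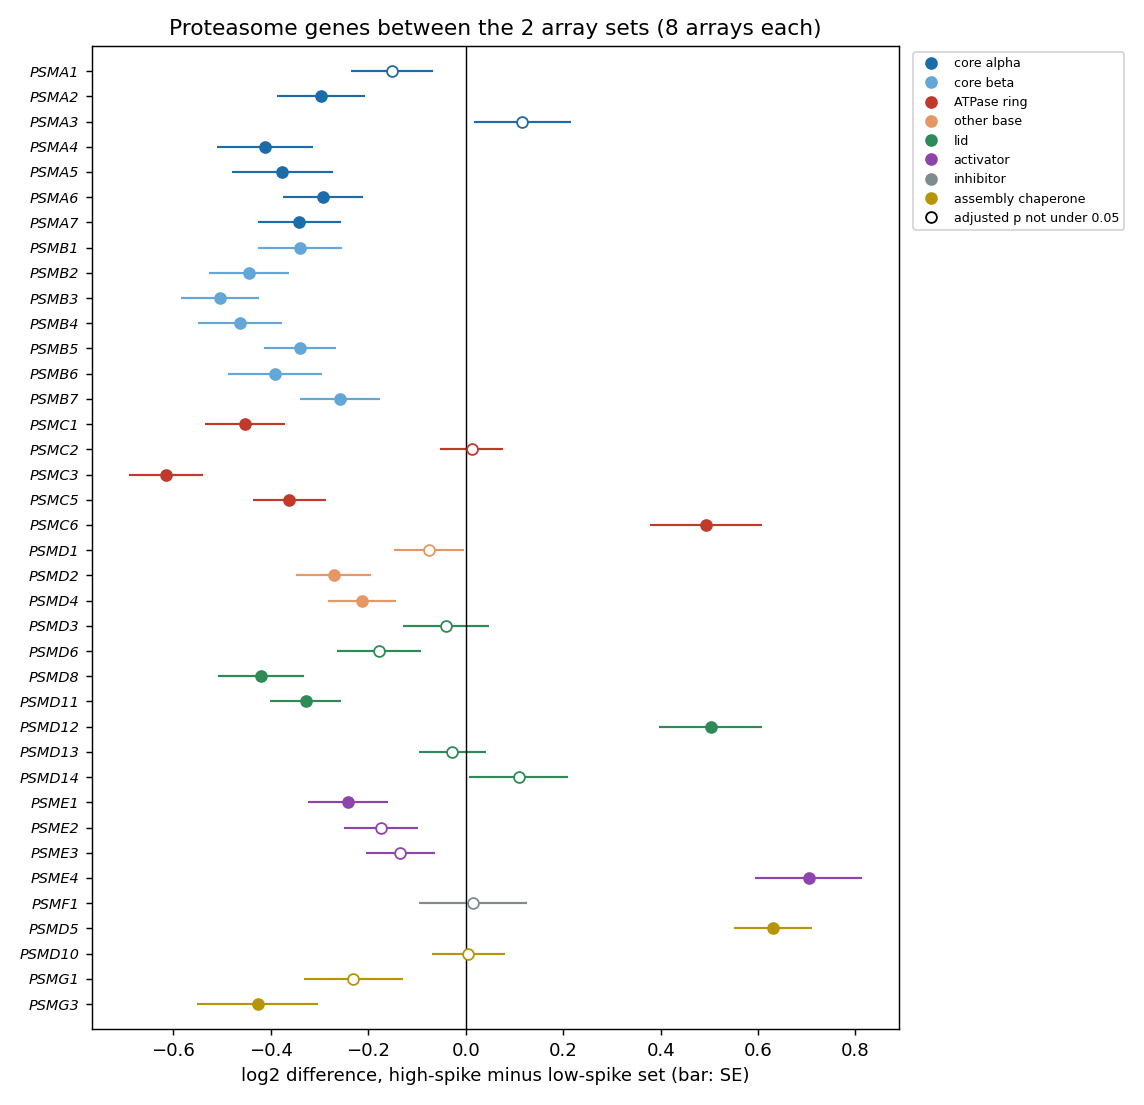
Log2 difference of each proteasome gene between the array sets (horizontal axis, high-spike minus low-spike, 8 arrays each) with its SE; filled points passed limma at an adjusted p under 0.05. Of the 25 filled points 21 lie to the left of 0, and PSMC6, PSMD12, PSME4 and PSMD5 lie to the right.

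Within each set, 4 high stress animals could be set against 4 low stress animals. All 14 core genes had higher means in high stress in both sets. The median log2 fold change of the alpha ring was 0.11 in the low-spike and 0.12 in the high-spike set, and that of the beta ring 0.21 and 0.13. For the ATPase ring it was 0.029 and 0.045, and for the lid 0.063 and 0.055. Over all members 26 of 38 were higher in both sets, against 29.6% of genes tested. Of the 683 genes with a mean log2 signal of 11.25 to 12.75, 44.7% were. The 26 members include all 14 core genes, whose median signal of 12.80 lies above that span. The 26 are therefore not matched to the 683 in signal.

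In the low-spike set 7 of 38 members had stress groups that did not overlap, against 4.6% of genes tested. PSMB6 lay at 13.09 to 13.15 in the 4 high stress animals and at 12.66 to 12.87 in the 4 low stress animals. PSMB3 lay at 11.70 to 11.77 against 11.43 to 11.57, and PSMD8 at 12.89 to 12.94 against 12.52 to 12.76. In these genes the high stress animals of the set were close together. PSMD4 (11.67 to 11.85 against 11.48 to 11.60) and PSME2 (12.33 to 12.42 against 11.90 to 12.22) were also separated upwards. PSME4 was separated downwards, at 8.13 to 8.23 in high stress and 8.32 to 8.56 in low stress, as was PSMC6, at 10.67 to 11.01 and 11.06 to 11.29.

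In the high-spike set 1 of 38 members did not overlap, against 1.63% of genes tested. This was PSME1, at 11.98 to 12.23 in high stress and 11.81 to 11.97 in low stress. PSMB6 overlapped there, at 12.34 to 13.01 against 12.21 to 12.64. The difference between the sets in the effect of stress did not pass limma for any member. Its interaction term called 0% of probe sets, and 0 of 38 members were at an unadjusted p under 0.05, against 2.92%.

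**Figure D4:**
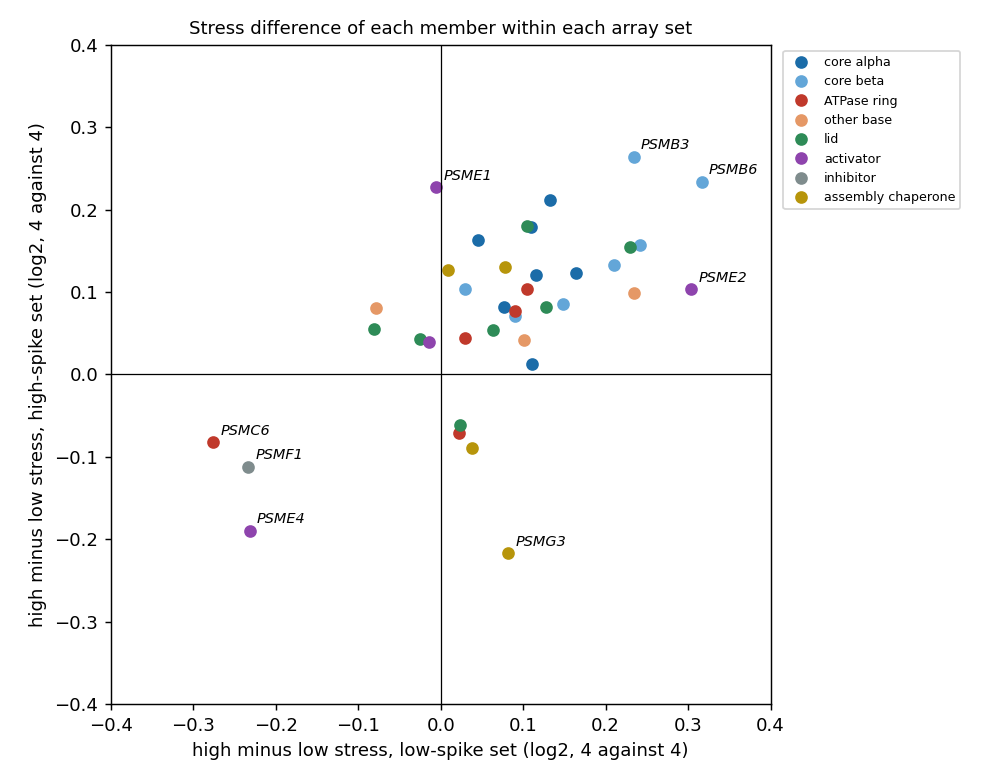
Log2 difference between high and low stress of each proteasome gene within the low-spike set (horizontal axis) and within the high-spike set (vertical axis), 4 animals against 4 in each; colours mark the class. The 14 core genes lie in the upper right part of the plot, and PSMC6, PSME4 and PSMF1 in the lower left.

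By animal, the mean over the beta ring was more spread than the means over the lid and the ATPase ring. Such means do not give the spread of single genes. By gene, the median SD within a stress group was 0.28 for the ATPase ring, 0.23 for the core and 0.19 for the lid. The mean deviation of the beta ring from its 16-animal mean was 0.083 ± 0.254 for high stress and -0.083 ± 0.226 for low stress (SD over 8 animals), so the spread within a group was larger than the difference. The 4 high stress animals of the low-spike set lay at 0.22 to 0.36, and the 4 low stress animals at -0.016 to 0.21. In the high-spike set the ranges were -0.30 to 0.11 and -0.36 to -0.10 and overlapped. The lid deviated by 0.034 ± 0.068 for high stress and -0.034 ± 0.061 for low stress, and for the ATPase ring 0.0022 ± 0.114 and -0.0022 ± 0.115.

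The number of the 38 members above the median of all animals ranged from 8 to 32 in high stress, with a median of 23.5, and from 6 to 31 in low stress, with a median of 12. High stress replicate 4 had the most and low stress replicate 1 the fewest. In the low-spike set all 8 arrays had 13 or more members above, and in the high-spike set all had 21 or fewer. Over all genes tested an array had 37.0% to 57.5% of its genes above that median. The spread between animals was small: the median SD over the members within a stress group was 0.22 on the log2 scale. It was 0.28 for all genes tested and 0.23 for the 683 genes with a mean log2 signal of 11.25 to 12.75.

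**Figure D5:**
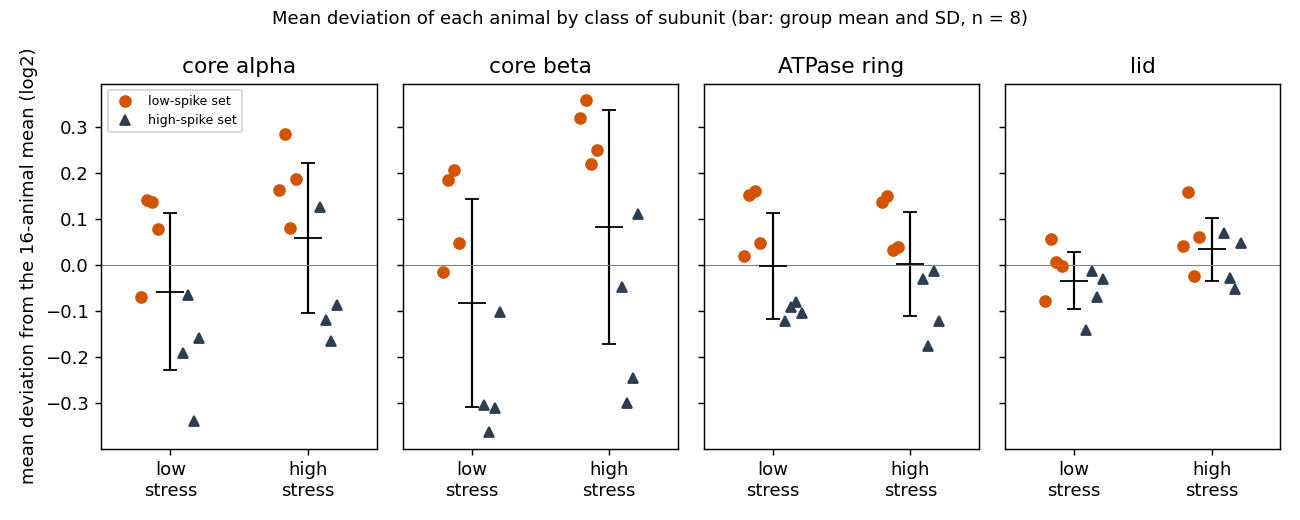
Mean deviation of each animal from the 16-animal mean (vertical axis, log2) over the genes of the alpha ring, beta ring, ATPase ring and lid, by stress group, with circles for the low-spike and triangles for the high-spike set and bars for the group mean and SD (n = 8). In the ATPase ring every low-spike animal (0.020 to 0.16) lies above every high-spike animal (-0.18 to -0.013), and in the beta ring the 4 high stress animals of the low-spike set lie at 0.22 to 0.36.

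Among the measured genes around the proteasome neither direction prevailed. Of 42 listed symbols, aliases included, 14 were measured, and none of the 7 regulators on the list was. Of 13 tested genes for accessory factors, substrate delivery and ubiquitin, the log2 fold change was positive in 7, near the 50.2% of all genes tested, and negative in 6. Its median was 0.0034. None passed limma, against 0% of all probe sets, and 0 had an unadjusted p under 0.05, against 3.19%. VCP, the segregase that extracts substrates for the proteasome, had 0.15 (SE 0.078), and its partner UFD1 had 0.079. SEM1, a small lid subunit without a PSM symbol, had 0.028, PITHD1 0.068, TXNL1 0.048, NSFL1C 0.060 and AKIRIN2, a factor for nuclear import of proteasomes, 0.0034. The zinc finger protein ZFAND5 had -0.10, ZFAND2A -0.055, FAF2 -0.075 and the chaperone PAAF1 -0.15. The ubiquitin genes UBB and RPS27A had -0.042 and -0.015. Of the interferon-inducible beta subunits, PSMB10 had 0.18 (SE 0.13) and PSMB8 -0.20 (SE 0.31), and neither passed. PSMB8 had -0.55 within the low-spike and 0.16 within the high-spike set.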

How the data were processed

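Per the submitters' processing notes, the intensity values were made with MAS5 in Affymetrix Expression Console 1.1.1; the deposited columns are linear signals with the same 2% trimmed mean (500) in every array. Raw scans, detection calls and the genome build were not used here. After removal of 124 control probe sets, 23999 remained. Names came from GEO's platform annotation (10069 probe sets with 1 symbol, 198 with several, 13732 with none), and no coordinates were used.

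Signals were taken to log2, and probe sets with a mean under the 40th percentile (log2 6.15) were left out, which kept 14399 for 5455 genes; all 38 members passed. Each gene was read from its brightest probe set. The test was the two-sided moderated one of limma (version 3.58.1, under R 4.3.3; lmFit and eBayes) with Benjamini-Hochberg adjustment over all probe sets tested. The array sets were split at the widest gap in the dap signal. The fit without a block was tested on simulated data for high against low stress over 14399 probe sets. It recovered 3.20% of shifts of log2 0.25, 22.8% of 0.5 and 78.4% of 1. These rates are for all probe sets, whose median SD within a stress group was 0.33, against 0.22 for the members. Recovery for the members alone was not tested. Every member is named; values by animal are given for the members with the smallest p in each class and for the most negative one. The members and lists were chosen with earlier results of these data known. Alternatives were other filters (none, or the 60th percentile), scalings (quantile, median), a pseudocount of 23.5, a trended robust prior, array weights, blocks, covariates, averaging the probe sets of each gene and leaving out each animal. PSMA8, PSMB9, PSMB11, PSMC4 and PSMD7 were not analysed here. Plots used matplotlib 3.10.9 (Python 3.11.15).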

Additional observations from a re-analysis of the deposited data

Results flagged for a closer look

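In PSMC2, an ATPase of the base, high stress replicate 2 lay apart at a log2 signal of 11.72. The other 7 high stress animals lay between 11.47 and 11.56. The gap was 0.653 of the range of the group, above the 95% critical value of Dixon's test for 8 samples. It was the only value to stand apart among 76 groups of animals examined, where chance gives about 1 in 20.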

How the results depend on the processing

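Under 16 alternatives no member passed limma for stress, and 28 to 35 of 38 members had higher means in high stress (35 with median centring, 28 with quantile normalization). The median over the members was 0.059 to 0.15. The lid median moved to 0.13 with median centring and was 0.0090 with probe sets averaged. PSME1 had -0.0055 within the low-spike set. The other 255 of 256 values of the 16 members described by animal kept their sign and their side of the threshold. The filters, the prior and the balanced blocks alone leave a fold change unchanged, so there only the p-values could move. Quantile normalization beside the block and the block of pairs were added after the data were seen. Between the sets, 20 members passed with quantile normalization, against 41.9% of probe sets, and 31 with median centring, against 47.5%; the other counts lay between. The labels give no replicate numbers shared between the groups and do not say what the animal numbers mean. Their leading digit with the array set puts 1 high and 1 low stress animal in each of 8 pairs. The deviations of the paired animals from their group and set means correlated over 0.1 in 4 of the 8 (-0.055 to 0.28). In 4 of the 8 the high stress animal correlated best with its own partner among the low stress animals of its set. Each partner was 1 of only 4 candidates, and how often unrelated animals would match was not tested. These counts therefore do not show that the pairs are real. The labels do not name these pairs, so the main fit did not use them. With the pairs as a block no member passed limma (smallest adjusted p = 0.462) and 8 of 38 had an unadjusted p under 0.05, against 9.17% of probe sets. PSMB2, PSMB3, PSMB7 and PSMD4 were higher in the high stress animal of 8 of 8 pairs (PSMB3 by 0.098 to 0.39), against 1.25% of genes tested, and PSMB6 in 7 of 8. A block on the leading digit alone left no member past the threshold. The labels give no sex, but a Y-linked signal on the arrays had low and high values in each stress group. On the log2 scale it ran from -0.86 to 10.3 in high stress and from -0.040 to 10.6 in low stress. With this signal as a covariate no member passed limma, and 29 of 38 had higher means in high stress. Leaving out each animal in turn gave 0 members called for stress, 28 to 32 with a higher mean, a median of 0.061 to 0.13, and 24 to 27 called between the sets. It moved 7 of the 16 members described by animal by over 1.5 times (PSMA4, PSMC5, PSMC6, PSMD2, PSMD14, PSME4 and PSMG1), with no change of sign. The lid median ranged from 0.014 without high stress replicate 4 to 0.087 without high stress replicate 5. In the fit without a block, simulated shifts of 0.25 on the log2 scale over all probe sets were rarely recovered. Recovery for the members alone or with a block was not tested.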
